A study of Mus musculus with 6 samples.

Results

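The genes described here make cholesterol, sense it, move it within the cell and export it. They were chosen by name as a list of 30 genes, and 27 of them had at least 1 probe set carrying that symbol alone in the array's annotation, out of 18193 genes represented in this way. Acat2, Soat1 and Nr1h2 had none, and their expression was not analysed here. Each gene was read from its brightest probe set, the one with the highest mean over all 6 arrays. A gene counted here as expressed where either group averaged 6 or more on the log2 scale, which held for all 27 and for 9302 genes in all.

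Mouse mesenchymal stem cells were bought from a commercial supplier and grown in a medium with 5% serum. The study compared 3 cultures irradiated for 12 h with a pulsed broadband terahertz source centred near 10 THz, at an average of 1 mW/cm2, with 3 unirradiated controls, each standing next to its irradiated partner in an independent experiment. Irradiated and control cultures alike had received 1 µM rosiglitazone, 5 µg/ml insulin, 100 µM IBMX, which blocks phosphodiesterases, and 1 µM dexamethasone, last added 48 h before irradiation, and were held at 26 to 27 °C. The labels give no strain, animal age or passage number. These additives drive fat cell formation, so every value belongs to cultures under that stimulus and below body temperature.

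Cholesterol is built from acetyl-CoA through mevalonate, the isoprenoid diphosphates and squalene, and then through a series of sterol rings. When sterols in the endoplasmic reticulum run low, the escort protein Scap carries the transcription factor SREBP2, the product of Srebf2, to the Golgi for cleavage, and the freed fragment switches on the synthesis genes. The Insig proteins hold Scap back when sterols are plentiful. In the opposite state oxidised sterols activate the LXR nuclear receptors, which switch on the exporters Abca1 and Abcg1, the lipoprotein gene Apoe and Mylip. Fat cells and macrophages both hold and release large amounts of cholesterol.

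The promoters of 4 genes show the kinds of letters through which this control is known to work, and are printed to place the results below. They come from RefSeq on build GRCm38.p6, in which 24 of the 30 genes matched by symbol, Soat1 among them. Each is the 250 bases before the annotated start, read 5′ to 3′ on the gene's strand. Capitals mark the matched motifs: TCACNCCA, the core of a sterol regulatory element, and CCAAT, the NF-Y box, in Srebf2 and Hmgcs1; CACGTG, an E-box, and CCAAT in Insig1; and GGTTA followed after 4 bases by CGGTCA, a direct repeat of the LXR kind, and CACGTG in Abca1. Every motif was searched on both strands, so that CCAAT also appears as its reverse complement and the Abca1 repeat is on the opposite strand.
Srebf2, chr15:82147019-82147268, plus strand: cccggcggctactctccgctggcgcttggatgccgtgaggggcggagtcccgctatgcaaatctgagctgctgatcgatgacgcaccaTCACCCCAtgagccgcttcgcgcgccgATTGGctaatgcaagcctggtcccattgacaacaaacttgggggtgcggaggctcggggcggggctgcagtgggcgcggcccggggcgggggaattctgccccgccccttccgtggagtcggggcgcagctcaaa
Hmgcs1, chr13:119690101-119690350, plus strand: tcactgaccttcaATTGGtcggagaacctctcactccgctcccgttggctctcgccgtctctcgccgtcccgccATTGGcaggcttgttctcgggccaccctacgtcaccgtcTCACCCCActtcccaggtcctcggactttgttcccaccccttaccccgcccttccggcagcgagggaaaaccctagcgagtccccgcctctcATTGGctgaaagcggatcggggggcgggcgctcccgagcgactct
Insig1, chr5:28071162-28071411, plus strand: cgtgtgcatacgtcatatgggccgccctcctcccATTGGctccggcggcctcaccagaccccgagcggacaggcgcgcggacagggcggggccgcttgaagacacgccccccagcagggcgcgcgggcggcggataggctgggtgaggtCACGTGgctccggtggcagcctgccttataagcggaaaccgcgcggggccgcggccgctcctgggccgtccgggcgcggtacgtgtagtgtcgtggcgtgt
Abca1, chr4:53159896-53160145, minus strand: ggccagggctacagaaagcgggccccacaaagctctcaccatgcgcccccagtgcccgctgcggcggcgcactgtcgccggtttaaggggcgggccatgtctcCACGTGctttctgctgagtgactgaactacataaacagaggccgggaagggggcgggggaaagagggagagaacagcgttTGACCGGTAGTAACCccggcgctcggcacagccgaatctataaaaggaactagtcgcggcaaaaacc

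Over windows of 300 bases, which also take in the 50 bases after the start, CCAAT occurred in 18 of the 24 matched genes and in 13 of 14 matched synthesis genes, against 41.1% of the 27025 genes in the RefSeq table. CACGTG occurred in 6 of the 24, Abca1, Dhcr7, Hsd17b7, Insig1, Sc5d and Scap, against 8.09% of all genes. TCACNCCA occurred in Apoe, Hmgcs1 and Srebf2, against 4.97%, and the repeat of GGTTA and CGGTCA in Abca1, against 0.0148%. These last 2 motifs were chosen after the promoters were read. The repeat of GGTTA and CGGTCA was written as it stands in the Abca1 promoter, so its match there was fixed in advance. A longer sterol element form, TCACNCCA with A before and C after it, and the repeat of AGGTCA with itself after 4 bases were found in none of the 24, and in 0.27% and 0.0148% of all genes. The matches describe letters and not binding.

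The cultures matched their label in part. Of 11 measured stromal markers 10 were at a mean of at least 6. The exception was Thy1, a defining surface marker of mouse stromal cells, at 3.76 to 4.26 on the 6 arrays. All 22 measured macrophage markers were at or above 6, among them Ptprc at 9.22 to 10.11 and Csf1r at 12.38 to 13.54, and so were 11 of 12 fat cell markers. None of 7 endothelial and none of 4 hepatocyte markers reached 6. Array medians lay between 4.74 and 4.80. Spiked-in hybridisation controls differed between irradiated and control arrays by 0.52 log2 units in experiment 3, against 0.10 and -0.10 in experiments 1 and 2.

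No gene of the 27 was called after Benjamini-Hochberg adjustment in limma, with experiments as blocks, and neither were any of the 9302 expressed genes (0%). The adjusted p of the 27 ran from 0.544 to 0.972. Before adjustment, 4 of 27 were under 0.05, or 14.8%, against 10.8% of expressed genes. They were Abcg1, Apoe and Srebf2, with lower values in irradiated cultures (6.28% of expressed genes), and Abca1, with higher values (4.57%). The genes under 0.05 differed between settings. There were 0 without experiment 1, only Mvd without experiment 2, and Fdft1, Sqle, Abca1 and Abcg1 without experiment 3. Without the replicate block Abcg1 alone was under 0.05. The share of expressed genes under 0.05 also moved, to 4.24%, 6.13% and 10.2% without experiments 1, 2 and 3, and 6.19% without the block. Mean differences, irradiated minus control, were below 0 for 21 of 27 genes, or 77.8%, against 48.6% of expressed genes, with a median of -0.12 against 0.00. In all 3 experiments 9 genes were lower, or 33.3%, against 18.7% of expressed genes, and 3 were higher, or 11.1%, against 18.6%. The differences were small. The 95% intervals of all 27 lay between -0.65 and 0.56 log2 units, that is within 1.57-fold lower and 1.47-fold higher. The number of arrays limits the precision.

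**Figure D1:**
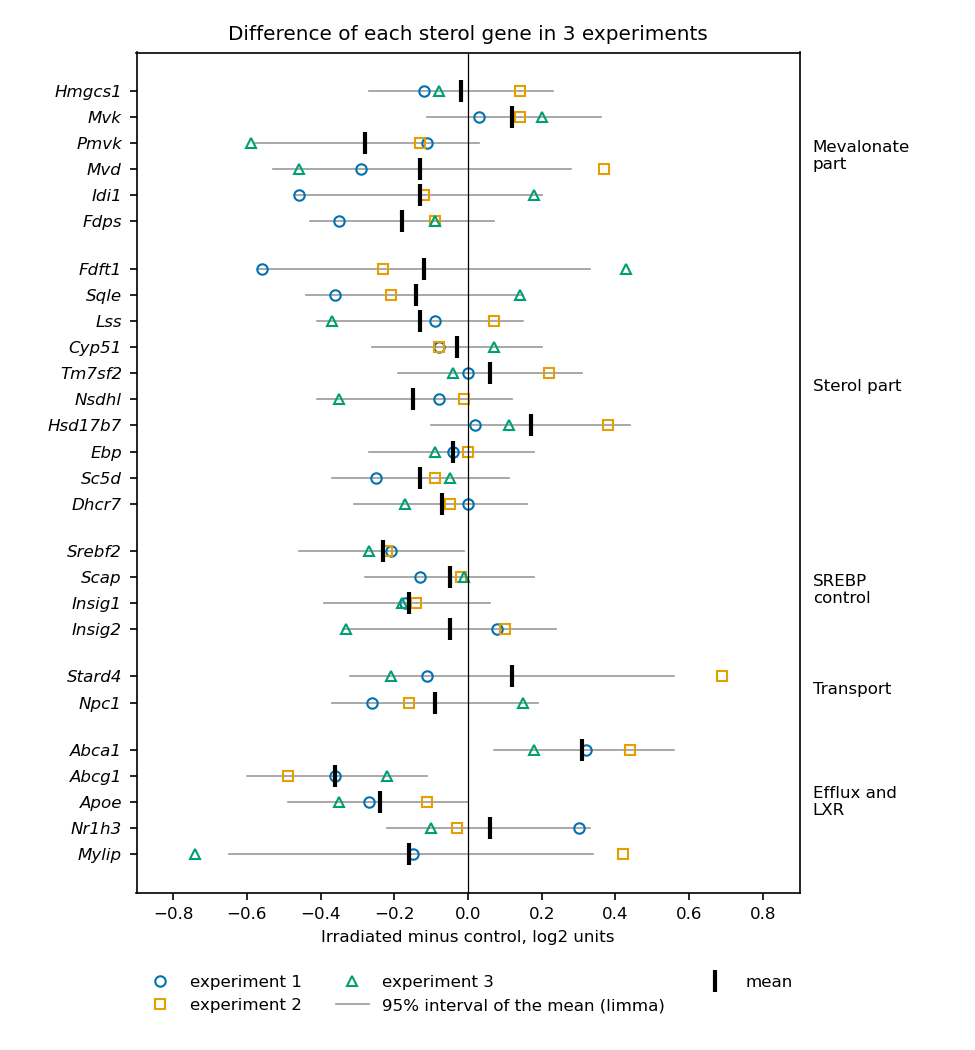
Log2 difference, irradiated minus control, of the 27 measured genes in pathway order, with 1 symbol per experiment, a bar for the mean and a grey line for the 95% interval from limma. Abcg1, Apoe, Srebf2 and Abca1 have means of -0.36, -0.24, -0.23 and 0.31. Of the 16 synthesis genes 13 have means below 0, against 48.6% of expressed genes, and some scatter on both sides of 0.

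The synthesis genes showed no shared shift that repeated in size between experiments. Of 16 measured genes 13 had a mean difference below 0, or 81.2%, against 48.6% of expressed genes, and 3 above, with a median of -0.12. In all 3 experiments 4 were lower, or 25%, against 18.7% of expressed genes, and 2 were higher, or 12.5%, against 18.6%. Their medians were -0.10, -0.03 and -0.07 in experiments 1, 2 and 3, and 12, 9 and 10 of the 16 were lower there. Of the 9302 expressed genes 4401, 4642 and 4571 were lower in these experiments. The median over the 16 mean differences was -0.04 without experiment 1, -0.11 without experiment 2 and -0.04 without experiment 3.

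In the mevalonate part of the pathway, which yields the isoprenoid building blocks, 5 of 6 genes had mean differences below 0. That is 83.3%, against 48.6% of expressed genes, and none passed adjustment. Pmvk, the phosphomevalonate kinase, had the largest statistic of this part. It read 7.76, 7.89 and 8.36 in the controls of experiments 1, 2 and 3 and 7.65, 7.76 and 7.77 in the irradiated cultures. It was lower in each experiment, while the groups overlapped, and the control of experiment 3 stood above the other 5 arrays. The mean difference was -0.28 ± 0.13 (SE) (limma adjusted p = 0.64), and -0.12 without experiment 3.

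Hmgcs1, the HMG-CoA synthase gene that is a classical SREBP2 target, read 10.70, 10.88 and 10.86 in controls and 10.58, 11.02 and 10.78 in irradiated cultures, so that the groups overlapped and the experiments differed in sign. Its mean difference was -0.02 (95% interval -0.27 to 0.23). Its 3 other probe sets at a mean of at least 6 differed by -0.02, 0.01 and 0.02.

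Fdps, the farnesyl diphosphate synthase, was lower in all 3 experiments, by -0.35, -0.09 and -0.09, with a mean of -0.18 ± 0.10 (SE). Idi1, which interconverts the isoprene units, differed by -0.46, -0.12 and 0.18. Its second probe set was lower in all 3 experiments, by -0.56, -0.30 and -0.17, with a mean of -0.34 ± 0.11 (SE) (limma adjusted p = 0.573). The groups did not overlap in that probe set. By their brightest probe sets 7.12% of expressed genes were lower without overlap. Mvd, the decarboxylase that makes isopentenyl diphosphate, differed by -0.29, 0.37 and -0.46. The mevalonate kinase gene Mvk was higher in all 3 experiments, by 0.03, 0.14 and 0.20, but its other probe set had a mean difference of -0.02.

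In the sterol part, from squalene to cholesterol, mean differences of the 10 genes lay between -0.15 and 0.17. Hsd17b7, a sterol ketone reductase, had the largest statistic. It read 9.85, 9.37 and 9.61 in controls and 9.87, 9.75 and 9.72 in irradiated cultures. It was higher in each experiment, by 0.02, 0.38 and 0.11, with overlapping groups. The mean difference was 0.17 ± 0.11 (SE) (limma adjusted p = 0.718), and its 2 other probe sets at a mean of at least 6 differed by 0.15 and 0.16.

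Nsdhl, a sterol dehydrogenase, was the 1 gene of the 27 whose groups did not overlap in the brightest probe set. That is 3.7%, against 7.12% of expressed genes lower without overlap. No member was higher without overlap, against 5.34% of expressed genes. It read 9.10, 9.07 and 9.15 in controls and 9.02, 9.06 and 8.80 in irradiated cultures. The 2 arrays nearest each other across the groups were 0.01 log2 units apart, and most of the mean difference of -0.15 ± 0.11 (SE) came from experiment 3, at -0.35.

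The early steps of the sterol part differed in sign between experiments. Fdft1, the squalene synthase, differed by -0.56, -0.23 and 0.43. Sqle, the squalene epoxidase and a control point of the pathway, differed by -0.36, -0.21 and 0.14. Without experiment 3 their mean differences were -0.40 and -0.29 (limma adjusted p = 0.593 for each, and 0.593 to 0.998 over all alternatives). Both were higher in experiment 3, in which hybridisation controls also read brighter on the irradiated array. The array medians of that experiment were 4.80 in the control and 4.79 in the irradiated culture. Of the 16 synthesis genes 10 were lower there, against 4571 of the 9302 expressed genes. The part of that array in these values was not tested. Fdft1 also varied widely between control cultures, which read 9.28, 8.78 and 8.03.

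The remaining sterol genes had mean differences between -0.13 and 0.06. Lss, the lanosterol synthase, differed by -0.09, 0.07 and -0.37, with a mean of -0.13 that was -0.01 without experiment 3. Its second probe set differed by -0.41, 0.11 and -0.43, a mean of -0.24 ± 0.13 (SE). Sc5d, a sterol desaturase, had a mean difference of -0.13, Dhcr7, the last reductase of the pathway, of -0.07, the isomerase gene Ebp of -0.04 and the reductase gene Tm7sf2 of 0.06. Cyp51, the lanosterol demethylase, had -0.03 from its brightest probe set and 0.18 ± 0.10 (SE) from the next. The control cultures themselves differed. For 25 of the 27 genes, or 92.6%, the range over the 3 controls exceeded the mean difference, against 83.2% of expressed genes.

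Among the genes that sense sterols, Srebf2 and Insig1 were lower in each experiment by nearly the same amount. Srebf2 read 7.61, 7.83 and 8.03 in controls and 7.40, 7.61 and 7.76 in irradiated cultures. The groups overlapped, because both the control and the irradiated values were lowest in experiment 1 and highest in experiment 3. Within experiments it differed by -0.21, -0.22 and -0.27, a mean of -0.23 ± 0.09 (SE) and 1.18-fold (limma adjusted p = 0.607, and 0.297 to 0.998 over the alternatives). The second Srebf2 probe set differed by -0.20, 0.10 and -0.08, a mean of -0.06 ± 0.10 (SE), so the 2 probe sets did not give the same pattern.

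Insig1, the sterol-regulated retention factor and itself an SREBP2 target, read 10.88, 11.04 and 11.13 in controls and 10.71, 10.90 and 10.95 in irradiated cultures. It was lower in each experiment, by -0.17, -0.14 and -0.18, and again the groups overlapped. The mean was -0.16 ± 0.09 (SE) and 1.12-fold (limma adjusted p = 0.686).

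Insig2, its less sterol-responsive relative, read 9.74, 9.58 and 9.69 in controls and 9.82, 9.68 and 9.36 in irradiated cultures, so that experiment 3 alone was lower. Its mean difference was -0.05 (95% interval -0.34 to 0.24), and 0.09 without experiment 3. The second Insig2 probe set was lower in all 3 experiments, by -0.03, -0.12 and -0.65, a mean of -0.27 ± 0.14 (SE). The third differed by 0.13, -0.04 and -0.46, a mean of -0.12 ± 0.13 (SE). Scap, the escort of SREBP2, read 9.54, 9.33 and 9.37 in controls and 9.41, 9.31 and 9.36 in irradiated cultures. It differed by -0.05 (95% interval -0.28 to 0.18), and the groups overlapped.

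**Figure D2:**
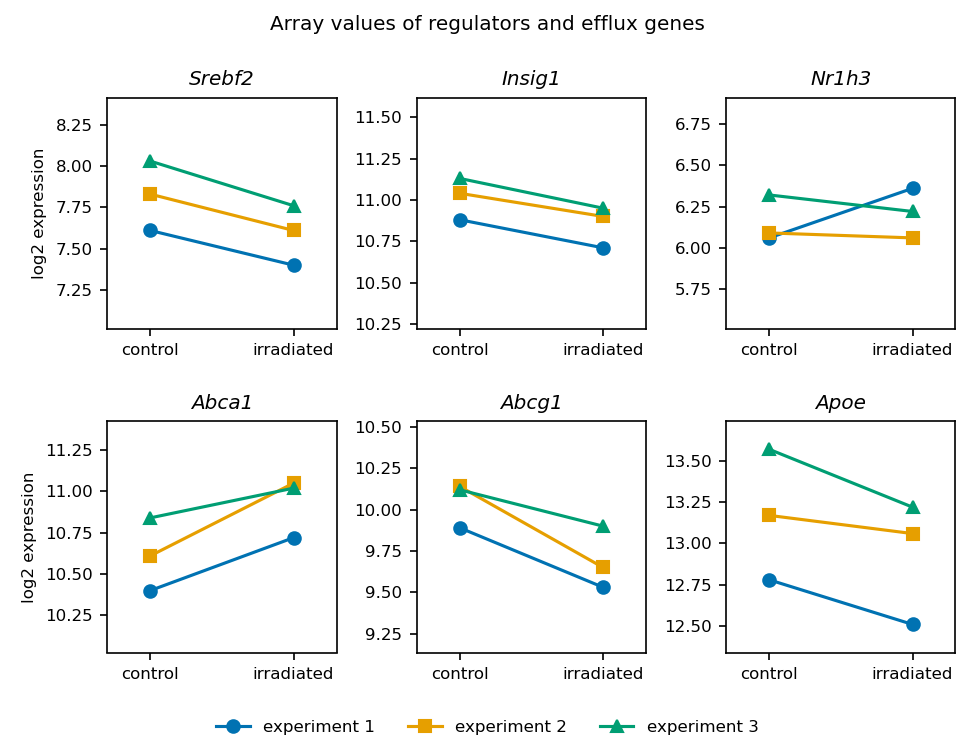
Deposited log2 expression of 6 genes on every array, with each control joined to the irradiated culture of its experiment. All panels span the same 1.4 log2 units. Srebf2, Insig1, Abcg1 and Apoe run down and Abca1 runs up in all 3 experiments, while Nr1h3 goes both ways.

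The 2 measured transport genes showed no repeated difference. Npc1, which exports cholesterol from lysosomes, read 8.49, 8.82 and 8.93 in controls and 8.23, 8.66 and 9.08 in irradiated cultures. It differed by -0.26, -0.16 and 0.15, a mean of -0.09 ± 0.12 (SE). Stard4, a cytosolic sterol carrier, read 7.27, 7.22 and 7.74 in controls and 7.16, 7.91 and 7.53 in irradiated cultures. Experiment 2 alone was higher, by 0.69, and its mean of 0.12 became -0.16 without experiment 2.

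The efflux genes held the largest differences of the 27, and these went in opposite directions. Abca1, which loads cholesterol and phospholipid onto lipid-poor apolipoproteins, read 10.40, 10.61 and 10.84 in controls and 10.72, 11.05 and 11.02 in irradiated cultures. It was higher in each experiment, by 0.32, 0.44 and 0.18, while the control of experiment 3 lay above the irradiated culture of experiment 1. The mean difference was 0.31 ± 0.10 (SE) and 1.24-fold (limma adjusted p = 0.569, and 0.275 to 0.998 over the alternatives). Its second probe set differed by 0.14 ± 0.10 (SE) and was higher in all 3 experiments, and another, dim at a control mean of 4.83, differed by -0.21 ± 0.11 (SE). Averaging the 3 probe sets gave 0.08.

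Abcg1, which passes cholesterol to mature high density lipoprotein, read 9.89, 10.14 and 10.12 in controls and 9.53, 9.65 and 9.90 in irradiated cultures. It was lower in each experiment, by -0.36, -0.49 and -0.22, with 1 irradiated array just above the lowest control. The mean difference was -0.36 ± 0.10 (SE) and 1.28-fold (limma adjusted p = 0.544, and 0.258 to 0.998 over the alternatives). Its second probe set was also lower in all 3 experiments, by -0.09, -0.23 and -0.28, a mean of -0.20 ± 0.10 (SE).

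Because Abca1 and Abcg1 are both LXR targets, their differences were set against each other within each experiment, a comparison chosen after the values were seen. The Abca1 difference exceeded that of Abcg1 by 0.68, 0.93 and 0.40 log2 units, with a mean of 0.67 ± 0.27 (SD, n = 3). An exact sign-flip test over the 3 experiments gave p = 0.25, the smallest value it can reach, so it cannot decide. No conclusion is drawn from it, since the pair was chosen for its difference. Without 1 experiment at a time the value ran from 0.54 to 0.81, and its sign could not change, because all 3 values were above 0. From the average of all probe sets the value was 0.36.

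Apoe, the apolipoprotein that carries exported cholesterol, read 12.78, 13.17 and 13.57 in controls and 12.51, 13.06 and 13.22 in irradiated cultures. It was lower in each experiment, by -0.27, -0.11 and -0.35, and the spread between experiments was wider than the difference within them. The mean difference was -0.24 ± 0.10 (SE) and 1.18-fold (limma adjusted p = 0.618, and 0.319 to 0.998 over the alternatives). Without the replicate block it was no longer under 0.05 before adjustment. It has 1 probe set of this symbol, and the highest values on the arrays were 14.41 to 14.53.

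Nr1h3, the gene of LXR alpha, was near the expression level of 6 and read 6.06, 6.09 and 6.32 in controls and 6.36, 6.06 and 6.22 in irradiated cultures. It was higher in experiment 1 alone, with a mean difference of 0.06 (95% interval -0.22 to 0.33). Mylip, a ubiquitin ligase that removes lipoprotein receptors, read 8.85, 8.96 and 9.84 in controls and 8.70, 9.38 and 9.10 in irradiated cultures. It differed by -0.15, 0.42 and -0.74, the widest spread between experiments among the efflux and LXR genes, with a mean of -0.16 ± 0.21 (SE) that became 0.14 without experiment 3.

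**Figure D3:**
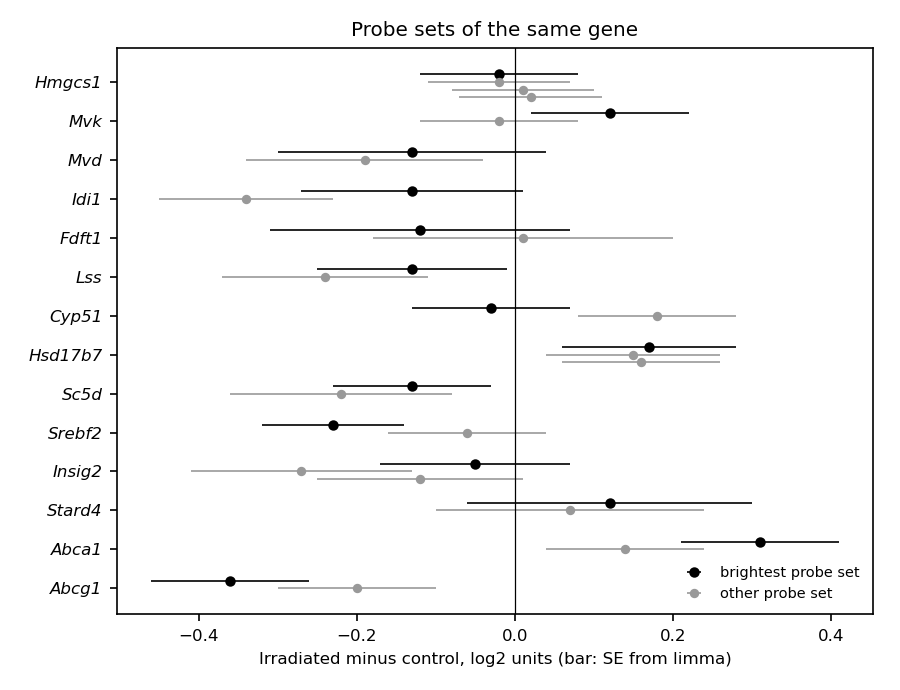
Mean log2 difference, irradiated minus control, with its SE from limma, for each probe set at a mean of at least 6 in the 14 genes that had several. The mean differences had 1 sign in 10 of the 14, among them Abca1, Abcg1, Hsd17b7 and Srebf2, while Hmgcs1, Mvk, Fdft1 and Cyp51 straddled 0. The second Srebf2 probe set is at -0.06 ± 0.10 (SE). An Abca1 probe set below 6, not drawn, differed by -0.21.

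Macrophage markers are given beside these values. Of the 22 measured markers 19 had a mean difference below 0, against 48.6% of expressed genes, and 7 were lower in all 3 experiments, against 18.7%. None passed adjustment and all were at or above the level of 6. Their median differences were -0.20, 0.08 and -0.12 in experiments 1, 2 and 3. The log2 of their summed signal ranged from 16.28 to 16.95 in controls and from 16.10 to 16.77 in irradiated cultures. In experiments 1 and 3 it was lower in the irradiated culture, at 16.10 against 16.28 and 16.77 against 16.95. Apoe and Abcg1 were lower in all 3 experiments, and Abca1 was higher in all 3, by 0.32, 0.44 and 0.18. In experiment 2 the summed signal was 16.70 against 16.69. There Abcg1 differed by -0.49, its widest difference, and Apoe by -0.11, its narrowest. Over the controls the summed signal and Apoe both stood lowest in experiment 1 and highest in experiment 3. The same order held for other genes, among them Abca1, Srebf2 and Insig1, while Fdft1, Idi1 and Sqle stood in the reverse order. In bulk RNA fewer cells of a type and less RNA per cell cannot be told apart. Fat cell markers were lower for 9 of 12, against 48.6% of expressed genes, with medians of 0.17, -0.03 and -0.23 in the 3 experiments. Their summed log2 signal ran from 15.50 to 15.70 in controls and from 15.55 to 15.66 in irradiated cultures. Of the fat cell markers Lep was below 6. The part of either cell type in the sterol genes was not tested.

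**Figure D4:**
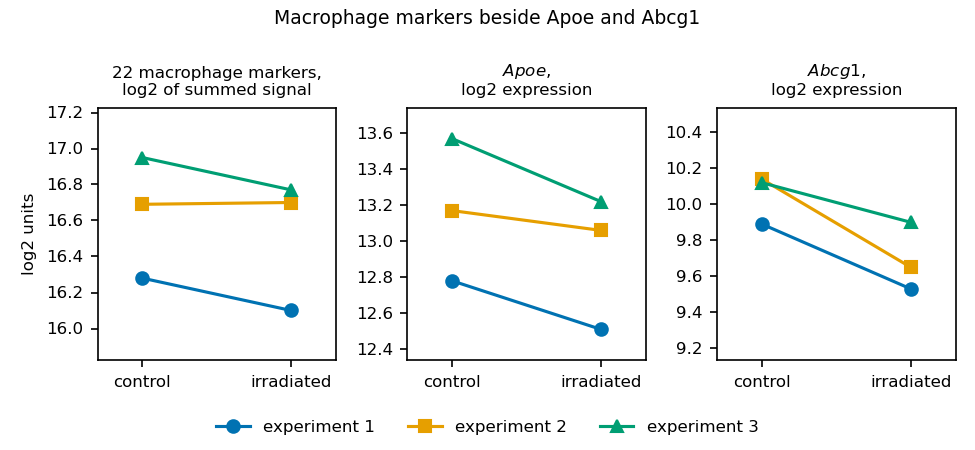
The log2 of the summed signal of 22 macrophage markers, and the log2 expression of Apoe and Abcg1, on every array, with the 2 cultures of an experiment joined. All panels span 1.4 log2 units. In experiment 2 the marker sum is level, 16.69 and 16.70, while Abcg1 goes from 10.14 to 9.65. Abca1, which is not drawn here, was higher in all 3 experiments.

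Synthesis and efflux genes did not differ in 1 direction across the experiments. The mean difference of the 16 synthesis genes was -0.17, 0.02 and -0.07 in experiments 1, 2 and 3, and that of the 5 efflux and LXR genes was -0.03, 0.05 and -0.25. Synthesis minus efflux was -0.14, -0.03 and 0.17, which is 0.00 ± 0.16 (SD, n = 3). The sign differed between experiments. Of the 5 efflux and LXR genes Abca1 and Nr1h3 had mean differences above 0 and the other 3 below, or 60%, against 48.6% of expressed genes. With Abca1, Abcg1 and Apoe alone as the efflux genes it was 0.02. The median over the 5 efflux and LXR genes was -0.16 and became 0.14 without experiment 3 and -0.29 without experiment 2.

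**Figure D5:**
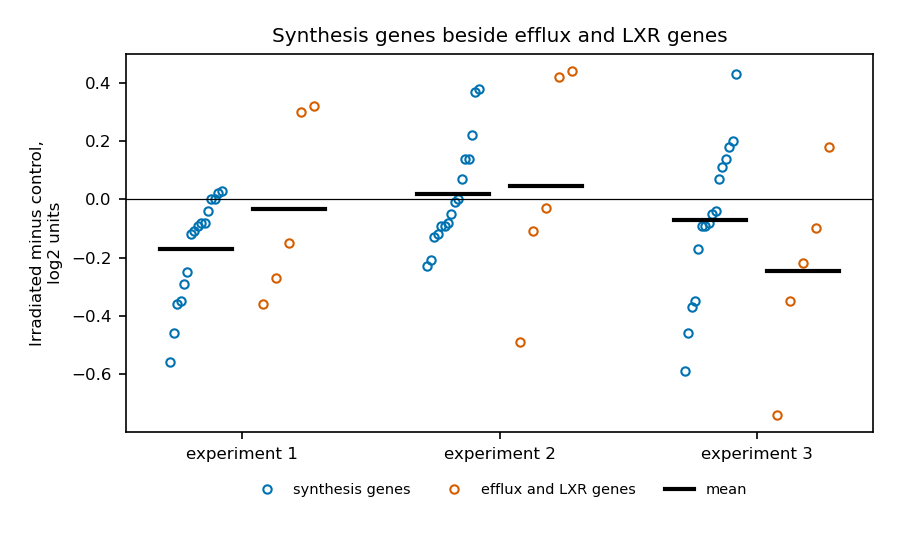
Log2 difference, irradiated minus control, of each of 16 synthesis genes and 5 efflux and LXR genes in each experiment, with a bar for the mean. The efflux and LXR genes spread from -0.74 to 0.44, and the distance between the 2 means changes sign from -0.14 in experiment 1 to 0.17 in experiment 3.

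Other genes of the same processes were listed by name, with 34 measured of 41 symbols, of which 28 were expressed. None passed adjustment. Mean differences were below 0 for 20 of the 34, expressed or not, against 48.6% of expressed genes, and the median was -0.05. Before adjustment 5 of 34 were under 0.05, or 14.7%, against 10.8% of expressed genes. All 5 were expressed, so among expressed genes alone they were 5 of 28. They were Nfya, a subunit of the factor that binds CCAAT, at -0.36 ± 0.09 (SE), Mbtps2, the membrane protease that makes the second cut in SREBP2, at -0.32 ± 0.12 (SE), the transporter gene Abca7 at -0.32 ± 0.12 (SE), Gramd1b, which moves plasma membrane cholesterol inward, at -0.28 ± 0.10 (SE), and the lipoprotein receptor gene Vldlr at 0.29 ± 0.10 (SE). Their limma adjusted p ran from 0.538 for Nfya to 0.597 for Mbtps2. Nfya differed by -0.39, -0.39 and -0.31 in the 3 experiments, and its other probe sets were dim, at control means of 4.40 and 2.95. Of the 6 probe sets of Vldlr the next brightest had a mean difference of 0.02.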

How the data were processed

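Expression was measured on 6 Affymetrix mouse arrays, 3 per group. The authors deposited 1 log2 value per probe set, to 2 decimals. RMA, affy and limma are named per the submitters' processing notes, with no genome build. The table has 45101 rows, of which 64 array controls were dropped. The groups were tested two-sided with limma 3.58.1 (lmFit, eBayes; R 4.3.3), blocking on experiment, and p-values were adjusted by Benjamini-Hochberg over 45037 probe sets, with a threshold of 0.05. Residual degrees of freedom were 2, plus 4.52 from the prior. The script was tested on simulated data. The pairing comes from the series' design text. Deviations from group means correlated at 0.787, 0.028 and 0.324 in the 3 pairs, so the values bear it out in part. The labels call the 3 experiments independent and biological.

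Members, roles and lists were chosen with earlier results of these data known. A member got its value in every array if its unadjusted p was under 0.05 or its statistic was the largest of its role, as did SREBP control genes, Abca1, Abcg1, Apoe and Nr1h3. Nsdhl, Hmgcs1, Fdft1 (controls), Stard4 and Mylip were added after their values were seen. Other sterol genes were named at an unadjusted p under 0.05. Medians over lists are descriptions without a test. The fit was repeated without the block, with it as random, without each experiment, without dim probe sets, after quantile normalization, after median centring, with limma's trend and robust options, on 1 probe set per gene, and on the mean over a gene's probe sets. Figures were drawn with matplotlib 3.10.9.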

Additional observations from a re-analysis of the deposited data

How the results depend on the processing

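None of the 27 genes passed an adjusted p of 0.05 under any of 11 alternatives, and the smallest limma adjusted p over them was 0.258, for Abcg1 with dim probe sets left out. Of 297 values of single genes 284 kept their sign. At an unadjusted p under 0.05 the count of 4 genes (Srebf2, Abca1, Abcg1 and Apoe) became 1 without the replicate block (Abcg1), 2 with a random replicate block (Abca1 and Abcg1), 0 without experiment 1, 1 without experiment 2 (Mvd), 4 without experiment 3 (Fdft1, Sqle, Abca1 and Abcg1), 3 after quantile normalization (without Srebf2), 6 with an intensity trend and robust prior (Pmvk and Insig1 added) and 2 with the mean of all probe sets (Abcg1 and Apoe). Among expressed genes the share was 10.8%, and in these settings, in the same order, 6.19%, 10.3%, 4.24%, 6.13%, 10.2%, 10.9%, 15.0% and 8.45%. The block changed no adjusted call among the 27. Over all probe sets 2 passed with a random replicate block, against 0 with the fixed one. The median of the synthesis genes, -0.12, ran from -0.11 to -0.04 with an experiment left out and was -0.07 with the mean of all probe sets. That of the efflux and LXR genes ran from -0.29 to 0.14 with an experiment left out. Synthesis minus efflux ran from -0.08 to 0.07. Values that reversed with an experiment left out had these ranges: Hmgcs1 -0.10 to 0.03, Mvd -0.37 to 0.04, Idi1 -0.29 to 0.03, Fdft1 -0.40 to 0.10, Tm7sf2 -0.02 to 0.11, Insig2 -0.12 to 0.09, Stard4 -0.16 to 0.29, Nr1h3 -0.07 to 0.14 and Mylip -0.45 to 0.14. With the mean of all probe sets Hmgcs1 was 0.08, Cyp51 0.02 and Scap 0.09. That mean takes in probe sets below the level of 6, which differed by 0.39 for Hmgcs1 and 0.23 for Scap. For Cyp51 the probe set below 6 differed by -0.10, and the second, above 6, by 0.18. The cause was not otherwise tested.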
